A study of Mus musculus with 6 samples.

Results

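The MHC class II genes described here are a list of 8 genes chosen by name: Cd74, H2-Aa, H2-Ab1, H2-Eb1, H2-DMa, H2-DMb1, H2-Oa and Ciita. All 8 were found among the 19848 genes of the deposited RNA table, and their levels are given for each cell type named by the authors and for each of 4 groups of mice. The study profiled immune-enriched cells of whole brain from female C57BL/6 mice by CITE-seq, which counts mRNA ends and antibody tags in the same single cells. The groups were young controls of 12 weeks given vehicle, young mice given antibiotics, which left the gut microbiota depleted, aged controls of 72 weeks given vehicle, and aged mice given antibiotics. Brains of 24 mice, 6 a group, were dissociated one by one with papain and joined into 12 pools, 3 a group, and the pool was the replicate in every comparison. Young and aged pools were loaded in separate wells and each well held its own control and antibiotic pools, so a difference by age and a difference between wells cannot be told apart. Each arm also had its own hashtags, numbers 1 to 3 for controls and 4 to 6 for antibiotics.

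MHC class II molecules present peptides from endosomes to CD4 T cells. H2-Aa and H2-Ab1 encode the alpha and beta chains of I-A, H2-Eb1 encodes the beta chain of I-E, and Cd74 encodes the invariant chain that escorts the new dimer and blocks its groove. H2-DMa and H2-DMb1 form H2-DM, which exchanges the remnant of Cd74 for antigenic peptide, and H2-Oa belongs to H2-O, a modulator of H2-DM best known in B cells. Ciita is the coactivator that switches the chain genes, Cd74 and H2-DM on in professional antigen-presenting cells and, after interferon gamma, in many others. In brain these molecules are classically found on border-associated macrophages (BAM), dendritic cells and B cells, whereas resting microglia carry little. C57BL/6 mice lack a working I-E alpha gene, H2-Ea, which the RefSeq annotation lists as a transcribed pseudogene, so H2-Eb1 RNA has no partner to reach the surface as I-E.

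The chain, H2-DM and H2-O genes lie on chromosome 17 of GRCm38.p6, from H2-Oa at chr17:34092379-34095234 through H2-DMa at chr17:34119693-34139101, H2-DMb1 at chr17:34153191-34160229, H2-Ab1 at chr17:34263227-34269418 and H2-Aa at chr17:34282744-34287823 to H2-Eb1 at chr17:34305867-34316674. Ciita lies at chr16:10480014-10531064. The 250 bases upstream of the start are shown for 4 members in RefSeq's GRCm38.p6, because class II promoters are defined by an ordered X box and Y box through which RFX, NF-Y and Ciita act. The windows are chr17:34305617-34305866 for H2-Eb1, chr17:34152941-34153190 for H2-DMb1 and chr17:34092129-34092378 for H2-Oa, each on the plus strand, and chr17:34287824-34288073 for H2-Aa on the minus strand. Each is written 5′ to 3′ and ends at the base before the start, with capitals marking the NF-Y core ATTGG of the Y box (CCAAT where it stands on the other strand) and the X box letters AACNGATG.
H2-Eb1: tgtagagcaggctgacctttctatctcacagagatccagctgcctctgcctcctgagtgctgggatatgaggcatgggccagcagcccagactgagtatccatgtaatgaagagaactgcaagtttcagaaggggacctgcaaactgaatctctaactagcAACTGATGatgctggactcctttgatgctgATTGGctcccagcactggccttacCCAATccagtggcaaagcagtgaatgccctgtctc
H2-DMb1: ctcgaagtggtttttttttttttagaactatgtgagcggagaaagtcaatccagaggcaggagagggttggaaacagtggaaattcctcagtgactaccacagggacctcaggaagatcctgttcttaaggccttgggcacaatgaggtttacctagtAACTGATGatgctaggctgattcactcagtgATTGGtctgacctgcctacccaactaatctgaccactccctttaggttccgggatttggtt
H2-Aa: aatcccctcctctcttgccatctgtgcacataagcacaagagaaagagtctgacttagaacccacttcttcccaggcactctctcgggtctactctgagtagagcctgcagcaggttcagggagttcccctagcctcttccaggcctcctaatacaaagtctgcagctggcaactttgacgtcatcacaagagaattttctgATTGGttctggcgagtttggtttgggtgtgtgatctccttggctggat
H2-Oa: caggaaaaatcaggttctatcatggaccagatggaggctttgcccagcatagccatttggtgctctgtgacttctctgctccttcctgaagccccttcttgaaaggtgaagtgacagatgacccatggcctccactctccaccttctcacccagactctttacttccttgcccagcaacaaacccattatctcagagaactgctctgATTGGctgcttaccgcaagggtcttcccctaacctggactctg
H2-DMb1 and H2-Eb1 hold both motifs in the X then Y order, with AACNGATG starting 92 and 89 bases before the start and ATTGG 61 and 59 bases before it. H2-Aa and H2-Oa hold ATTGG 48 and 43 bases before the start, inside the longer CTGATTGG that H2-Eb1 also holds, and neither window has AACNGATG. H2-DMa has 2 windows in the table, not printed because both start inside the annotated span of the gene: chr17:34122582-34122831 holds none of these motifs, and chr17:34125268-34125517 holds ATTGG 198 bases before the start and no AACNGATG. Searched on both strands of 32851 RefSeq windows of this length, ATTGG occurs in 33.85%, CTGATTGG, which contains it, in 3.83%, and AACNGATG in 1.98%. These matches are descriptions of letters, not of bound sites. AACNGATG is a fixed string, so its absence from a window does not show that the window lacks an X box.

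RNA values are UMI counts per cell that the authors corrected for depth with SCTransform, so a level below is a mean corrected count per cell, and because mRNA ends are counted no length correction applies. The table holds 13052 cells, 3263 a group and 760 to 1590 a pool, with 5745242 to 13742781 raw UMIs a pool and a median of 6931 UMIs a cell in the young and 7041.5 in the aged well. Antibody depth differed more, with medians of 1348 tags a cell in the young and 209 in the aged well. The wells share 59 cell barcodes. Of the authors' types, 9403 cells were microglia (72.0%), 506 BAM, 634 Ly6CLow, 487 B cells, 389 Ly6CHigh, 352 Ly6C+Ly6G+, 330 ILCs, 728 CD8+ and 214 CD4+ cells, and 9 NK cells were too few to use. Microglia had the P2ry12 marker above 0 in 99.5% of cells, BAM had Mrc1 in 100% and Pf4 in 75.9%, and B cells had Cd79a in 75.4%. The class the authors call Ly6CLow was mixed by its markers: the monocyte gene Ccr2 was above 0 in 52.1% of its cells, Itgax in 37.4%, the macrophage gene Mrc1 in 32.2%, and the dendritic genes Cd209a in 30.0% and Flt3 in 21.3%.

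Ly6CLow cells, BAM and B cells held most of the classical class II RNA, with 42.2%, 29.3% and 16.8% of all Cd74 values in the table. Cd74, the invariant chain (GRCm38.p6 chr18:60803849-60812652), averaged 148 ± 49.7 (SD over 12 pools) a cell in Ly6CLow, 125 ± 27.6 in BAM and 76.4 ± 14.1 in B cells, against 0.824 ± 0.168 in microglia. H2-Aa was at 50.5 ± 16.0 in Ly6CLow, 44.2 ± 10.5 in BAM, 19.4 ± 3.599 in B cells and 0.133 ± 0.037 in microglia, and H2-Ab1 and H2-Eb1 had the same order of these 4 types. BAM and B-cell pools did not overlap for H2-Aa, H2-Ab1 or H2-Eb1, while Ly6CLow and BAM pools overlapped for these genes and for Cd74. Ly6CHigh cells came next, with a Cd74 level of 27.5 ± 25.7 over 11 pools that overlapped the 17.9 ± 13.9 of CD4+ cells over 8 pools. By the mean over pools, microglia stood last of 9 types for Cd74, the 3 chain genes and Ciita, though most ILC pools lay below the microglial mean of Cd74. A summed H2-Aa, H2-Ab1 and H2-Eb1 value of at least 10 was reached by 44 of 389 Ly6CHigh and 19 of 214 CD4+ cells. It was reached by 23 of 728 CD8+ and 18 of 352 Ly6C+Ly6G+ cells and by 7 of 330 ILCs. The median sum was 0 in each of these types, so their means do not describe most of their cells. The T cells, ILCs and Ly6C+Ly6G+ cells past that sum also count in the shares above 0 given below. These levels are a description without a test, since the authors may have used such genes or the I-A/I-E antibody to name the types.

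H2-DM, H2-Oa and Ciita each had an order of their own. H2-DMa was highest in Ly6CLow at 5.68 ± 1.81, followed by BAM at 3.89 ± 0.600, B cells at 2.88 ± 0.480 and Ly6CHigh at 2.17 ± 0.959, with microglia the fifth at 1.53 ± 0.084. H2-DMb1 was likewise highest in Ly6CLow at 4.74 ± 1.68 and at 0.825 ± 0.064 in microglia, the fifth of 9 types. H2-Oa, the H2-DM modulator, was highest in B cells at 0.987 ± 0.325 and Ly6CLow at 0.750 ± 0.262, and microglia came next at 0.371 ± 0.051, above BAM at 0.144 ± 0.077. Ciita led in B cells at 0.865 ± 0.249 and Ly6CLow at 0.756 ± 0.220, with BAM at 0.518 ± 0.155 and microglia at 0.003 ± 0.003. BAM did not overlap the next type, Ly6CHigh, for Ciita. Because microglia were 72.0% of the cells, they still held 63.9% of the summed H2-DMa values, 55.9% of those of H2-DMb1 and 73.7% of those of H2-Oa, but 3.66% of Cd74 and 1.87% of H2-Aa. Among genes outside the 8, H2-Ob, the partner of H2-Oa, was at 1.31 in B cells, 0.24 in Ly6CLow and 0.16 in microglia, and the alternative DM beta gene H2-DMb2 was at 1.88 in B cells and 0.77 in Ly6CLow. The paralogs H2-DMb1 and H2-DMb2 are close in sequence, so the split between them depends on the authors' counting.

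**Figure D1:**
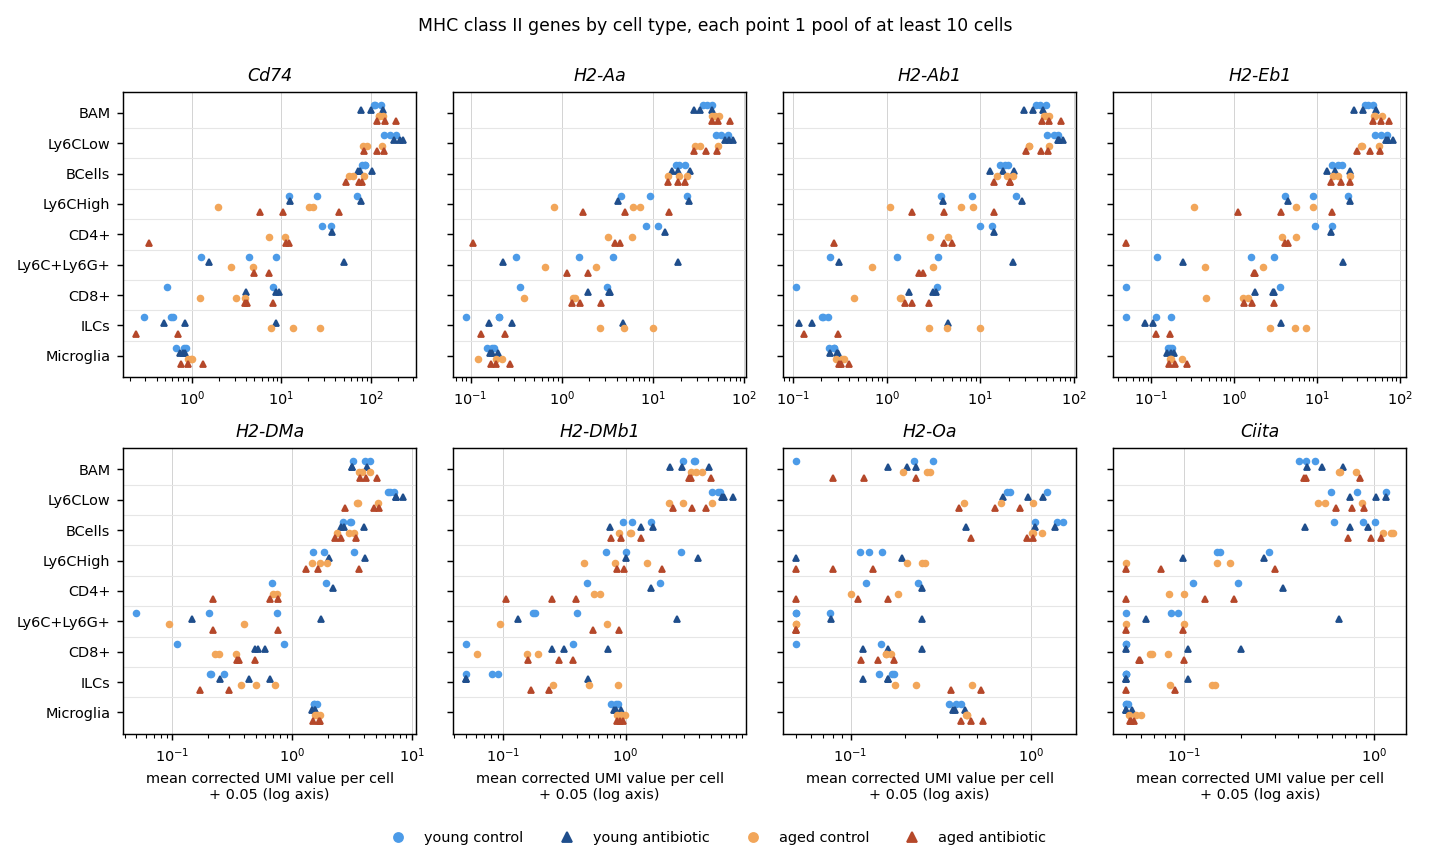
Mean corrected RNA value per cell + 0.05 (horizontal log axis) of the 8 MHC class II genes, 1 panel a gene, in each cell type named by the authors; each point is 1 pool of at least 10 cells, with colour and shape for its group. BAM, Ly6CLow and B cells sit far to the right of microglia for Cd74, H2-Aa, H2-Ab1, H2-Eb1 and Ciita, whereas microglia hold a middle place for H2-DMa, H2-DMb1 and H2-Oa.

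The share of cells with a value above 0 separated the genes in microglia. H2-DMa was above 0 in 73.5% ± 2.6 of microglia (SD, 12 pools), H2-DMb1 in 51.8% ± 3.1, Cd74 in 41.7% ± 3.4 and H2-Oa in 27.2% ± 2.9. H2-Ab1 was above 0 in 18.6% ± 1.8, H2-Eb1 in 9.50% ± 0.66 and H2-Aa in 9.01% ± 1.34, while Ciita was seen in 17 of 9403 microglia. CD8+ T cells, which should lack these genes and had a like depth (median 7096.5 UMIs against 6934), were above 0 for H2-Aa in 13.1%, H2-Eb1 in 11.9%, H2-Ab1 in 14.5%, Cd74 in 23.2%, H2-DMa in 18.04%, H2-DMb1 in 4.89% and H2-Oa in 8.46%. Over CD8+, CD4+, ILC and Ly6C+Ly6G+ cells the shares ran from 13.1% to 15.8% for H2-Aa, from 11.9% to 19.5% for H2-Eb1 and from 13.2% to 26.5% for H2-Ab1. The microglial shares of H2-Aa and H2-Eb1 were therefore below those of the 4 types and are read as background. That of H2-Ab1 was above the share of CD8+ cells but within the range of the 4 types. Over all cells, H2-Ab1 was above 0 in 1738 of 9403 microglia, 110 of 728 CD8+ and 74 of 352 Ly6C+Ly6G+ cells. It was above 0 in 32 of 214 CD4+ cells and 46 of 330 ILCs, so the microglial H2-Ab1 share is not read either way. For Cd74 the 4 types ran from 23.2% to 35.2%, under the microglial share, and for H2-DMa, H2-DMb1 and H2-Oa none of the 4 exceeded 25.8%, 14.9% and 15.2%.

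BAM had most members in most cells. Cd74 was above 0 in 84.2% ± 9.7 of BAM, H2-DMa in 79.6% ± 7.6, H2-Ab1 in 75.1% ± 8.5, H2-Aa in 74.6% ± 10.7, H2-DMb1 in 73.4% ± 6.1 and H2-Eb1 in 71.8% ± 11.2. Ciita, the coactivator, was above 0 in 28.4% ± 7.2 of BAM, and H2-Oa in 12.0% ± 7.3, which is within the range of the types that should lack it. For H2-Oa, then, microglia had a higher share and a higher level than BAM, and the pools did not overlap in level, at 0.299 to 0.489 in microglia and 0 to 0.235 in BAM.

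Within a type, the cells split by their summed H2-Aa, H2-Ab1 and H2-Eb1 value. A sum of at least 10 was reached by 74.5% of B cells, 68.0% of BAM and 53.3% of Ly6CLow cells, but by 0.181% of microglia, which is 17 cells. At the other end, all 3 genes were at 0 in 10.3% of B cells, 19.8% of BAM, 30.4% of Ly6CLow cells and 67.6% of microglia. Of the microglia with all 3 at 0, H2-DMa was above 0 in 72.0% and H2-Oa in 26.3%. The summed chain genes were 18.6 times the summed H2-DM genes in BAM, 15.2 times in Ly6CLow and 14.3 times in B cells, and 0.226 times in microglia. Ciita followed the split: it was above 0 in 40.1% of BAM with a sum of at least 10 and in 1.85% of the other BAM, in 67.8% and 1.01% of Ly6CLow cells, and in 56.2% and 2.42% of B cells. H2-Oa followed it in Ly6CLow, with 52.7% against 4.05%, and in B cells, with 66.4% against 10.5%, but not in BAM, with 11.6% against 11.1%.

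Correlations over cells, centred by pool and on the ln(1 + value) scale, gave the same picture as a description. In BAM the pairs among Cd74, H2-Aa, H2-Ab1 and H2-Eb1 had r from 0.96 to 0.98 over 506 cells, and pairs of these genes with an H2-DM gene 0.74 to 0.78, with Ciita 0.39 to 0.41 and with H2-Oa 0.02 to 0.03. In Ly6CLow (634 cells) the ranges were 0.96 to 0.98, 0.86 to 0.91, 0.62 to 0.64 and 0.54 to 0.56 in that order. In microglia the 28 pairs of members lay between -0.07 and 0.18, and those among Cd74 and the chain genes between 0.12 and 0.18. Between H2-DM genes and Ciita r was 0.31 to 0.36 in BAM and 0.56 to 0.58 in Ly6CLow, and between H2-Oa and Ciita it was 0.03 and 0.42. The 5 genes outside the list that followed the summed members most closely were Cd52 (0.63), Fxyd5 (0.56), Rps19 (0.50), Plbd1 (0.49) and Ccr2 (0.49) in BAM, and Tmem176b (0.75), Ctsh (0.70), Tmem176a (0.70), Slamf9 (0.69) and Mgl2 (0.68) in Ly6CLow. In microglia the closest gene, the lysosomal protease Ctss, reached 0.23 over 9403 cells. Across 36 means of a type in a group, Pltp (0.88), Clic4 (0.86), Gm6377 (0.85), Clec4b1 (0.85) and Clec10a (0.84) were closest to the members' mean pattern, while H2-Oa itself was at 0.54. Cells of a library share their depth and free RNA, so these r are given without a p.

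In microglia, no member passed the test in any of 6 contrasts. limma was fitted on log2(pool mean + 0.05) over 8759 genes with 12 pools, 7 of the 8 members passed the filter on low values (Ciita did not), and p-values were Benjamini-Hochberg adjusted over all genes tested. Antibiotics called 0.137% of genes in young mice, 3.23% in aged mice, 5.4% over the 2 ages averaged and 0% for the aged minus young difference (579 genes at an unadjusted p under 0.05), with 0 of 7 members in each. Their log2 differences ran from -0.02 to 0.09 in young and from -0.02 to 0.25 in aged mice. The intervals bound what could be missed: the 95% interval of H2-Aa in aged mice ended at 0.64, the highest of the members at either age. No member reached an unadjusted p under 0.05 in the 4 antibiotic contrasts.

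All 7 tested members were higher in aged than in young microglia without passing the test, where 2.66% of genes were called in controls and 6.15% under antibiotics. The members' median log2 difference was 0.17 in controls and 0.26 under antibiotics, against 0.017 and 0.027 over all genes tested. Cd74 was at 0.755, 0.798 and 0.615 in young control pools, 0.745, 0.778 and 0.690 under antibiotics, 0.843, 0.919 and 0.941 in aged controls, and 0.848, 1.27 and 0.695 in aged antibiotic pools. All aged controls were above the young controls, whereas 1 aged antibiotic pool stood high at 1.27 and another within the young range. H2-Ab1, the I-A beta chain, was at 0.224, 0.225 and 0.195, then 0.253, 0.201 and 0.244, then 0.237, 0.286 and 0.301, and last 0.276, 0.349 and 0.259 in the same order of groups. Aged and young pools of H2-Ab1 did not overlap within either arm. How many of all genes tested had pools apart in this way was not counted, in microglia or in other types. The log2 difference of H2-Ab1 was 0.29 (SE 0.10, limma adjusted p = 0.192) in controls and 0.28 (adjusted p = 0.126) under antibiotics, and that of Cd74 in controls was 0.31 (SE 0.14, adjusted p = 0.345).

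H2-Oa in microglia was at 0.299, 0.357 and 0.333 in young controls, 0.382, 0.318 and 0.329 in young antibiotic pools, 0.387, 0.392 and 0.392 in aged controls, and 0.417, 0.489 and 0.360 in aged antibiotic pools. Aged controls lay above young controls, and the aged antibiotic pools overlapped the young ones. The log2 difference by age was 0.22 in controls (SE 0.092, limma adjusted p = 0.306) and 0.26 under antibiotics (adjusted p = 0.107), and it passed with 0.32 (adjusted p = 0.0402) when only microglia of at least 2000 raw UMIs were used. Without the third aged antibiotic pool, H2-Oa (0.36, limma adjusted p = 0.0291) and Cd74 (0.47, adjusted p = 0.0383) passed by age under antibiotics, in a fit that called 421 genes against 539 with all pools. H2-DMa, the most widely detected member, was at 1.47, 1.47 and 1.56, then 1.51, 1.42 and 1.504, then 1.65, 1.56 and 1.503, and last 1.44, 1.64 and 1.67, so that all groups overlapped. Shares above 0 were as close: H2-DMa in 73.2%, 71.9%, 72.5% and 76.3% of microglia and H2-Aa in 9.80%, 9.45%, 8.08% and 8.74%, in the same order of groups. Summed B-cell markers in microglia were at 1.93, 1.83, 3.21 and 2.70 and summed dendritic markers at 0.049, 0.069, 0.096 and 0.102, so both were higher in the aged well. In the 80.2% of microglia at 0 for the B-cell genes Cd79a, Cd79b and Ms4a1, all 7 members were again higher with age in both arms and none passed, with Cd74 at a log2 of 0.34 in controls (limma adjusted p = 0.341) and 0.36 under antibiotics (adjusted p = 0.185). In the 95.3% at 0 for Mrc1, Pf4, Ms4a7 and Cbr2, none passed and all were higher except H2-Aa in controls, at -0.01. The part of the dendritic markers was not tested.

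**Figure D2:**
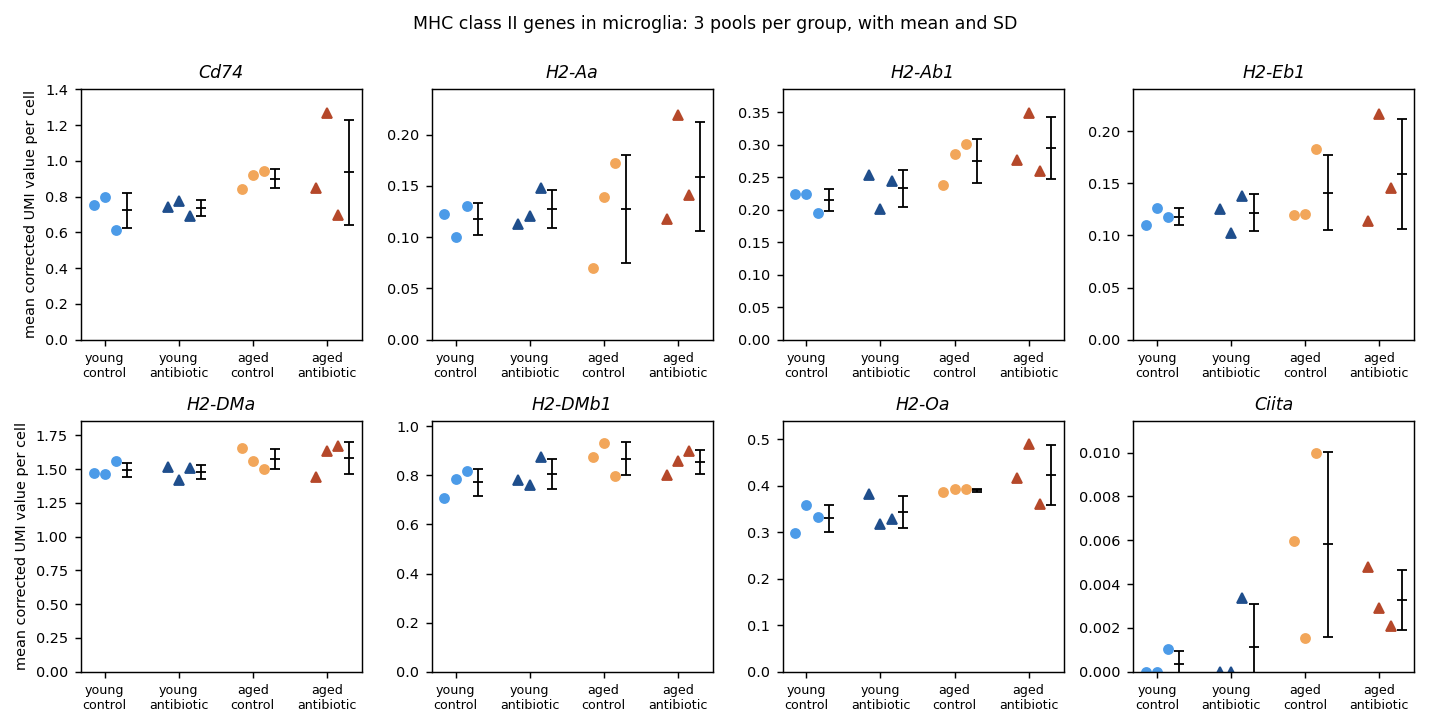
Mean corrected RNA value per microglial cell (vertical linear axis from 0, its own in each panel) of the 8 genes by group; each point is 1 pool, and the bar beside it gives the mean and SD of 3 pools, ending at 0 for Ciita. Aged controls lie above young controls for Cd74, H2-Ab1 and H2-Oa, none of which passed the test, and control and antibiotic pools overlap at each age.

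In BAM, the chain genes were higher in aged than in young mice under antibiotics, but no member passed the test in any contrast, with 8 of 8 tested over 8942 genes. H2-Aa was at 44.3, 39.4 and 34.9 in young controls, 44.6, 32.9 and 28.0 in young antibiotic pools, 47.2, 52.2 and 43.9 in aged controls, and 68.6, 43.6 and 50.9 in aged antibiotic pools. Aged and young pools overlapped in both arms, by a small margin in each. Under antibiotics, where 0.0783% of genes were called, H2-Aa differed by a log2 of 0.63 (SE 0.17, unadjusted p = 0.0011, limma adjusted p = 0.201), H2-Ab1 by 0.61 and H2-Eb1 by 0.66 (both adjusted p = 0.213). The members' median was 0.42 there, against -0.15 over all genes tested. Without the first young antibiotic pool, which was the highest of its group, H2-Aa passed with 0.81 (adjusted p = 0.0488), in a fit that called 13 genes against 7 with all pools. In controls, where 0.0447% of genes were called, all 8 members were higher in aged mice by a median log2 of 0.24, against 0.010 over all genes.

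Ciita in BAM was at 0.436, 0.353 and 0.386 in young controls, 0.639, 0.394 and 0.483 in young antibiotic pools, 0.757, 0.600 and 0.613 in aged controls, and 0.788, 0.386 and 0.380 in aged antibiotic pools. Aged controls lay above all young controls (log2 difference 0.68, limma adjusted p = 0.797), and antibiotic and control pools overlapped at each age. Antibiotics called 0.0224% of BAM genes in young mice, 0.123% in aged mice, 0.0559% for the mean and 0% for the difference (551 genes at an unadjusted p under 0.05), with 0 of 8 members each. H2-Oa, near background in BAM, spread from 0 to 0.235 over single pools, and its intervals were the widest of the members.

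The share of BAM that carried class II RNA pointed the same way. A chain sum of at least 10 was reached by 60.2% ± 8.4 of BAM in young controls, 59.0% ± 14.1 under antibiotics, 73.2% ± 2.5 in aged controls and 80.2% ± 7.6 in aged antibiotic pools, and 1 young antibiotic pool, at 75%, lay within the aged range. Among BAM of at least 2000 UMIs the shares were 60.03%, 59.0%, 74.3% and 83.6%. Cd74 was above 0 in 74.4% ± 8.4, 78.8% ± 6.8, 88.2% ± 2.4 and 95.2% ± 2.2 of BAM in that order of groups. The shares were not among the calls: with the share above 0 as the measure, no member of BAM passed in any contrast.

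**Figure D3:**
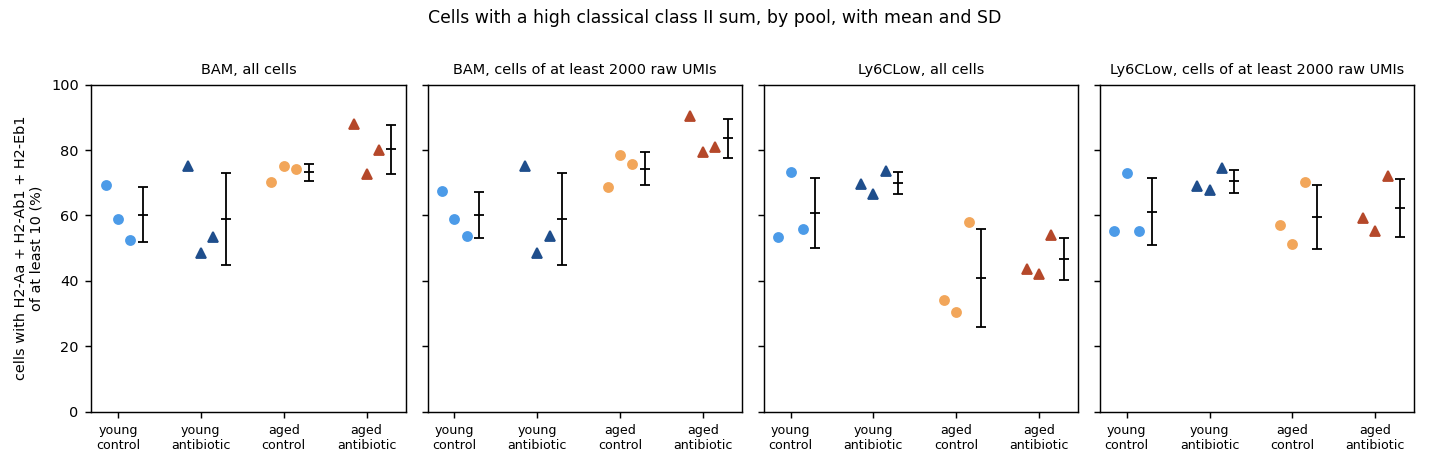
Percent of cells with a summed H2-Aa, H2-Ab1 and H2-Eb1 value of at least 10 (vertical axis, 0 to 100) by group, for BAM and Ly6CLow, over all cells and over cells of at least 2000 raw UMIs; each point is 1 pool, and the bar gives the mean and SD of 3 pools. BAM means are higher in aged than in young groups (73.2% and 80.2% against 60.2% and 59.0%), and Ly6CLow means are lower in aged groups over all cells (41.0% and 46.6%) than at the depth limit (59.5% and 62.3%).

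In Ly6CLow cells, class II RNA fell with age under antibiotics, and 5 of 8 members passed the test there. Cd74 was at 140, 193 and 165 in young controls, 211, 181 and 231 in young antibiotic pools, 90.9, 82.2 and 136 in aged controls, and 116, 83.9 and 142 in aged antibiotic pools. Aged pools lay below young pools within each arm. Aged antibiotic pools were lower than young ones by a log2 of -0.89 for Cd74 (SE 0.19, limma adjusted p = 0.0198), -0.90 for H2-DMa (adjusted p = 0.0305), -0.85 for H2-Aa (adjusted p = 0.0397), -0.98 for H2-DMb1 (adjusted p = 0.0443) and -0.78 for H2-Ab1 (adjusted p = 0.0443). Of all 8613 genes tested, 1.06% were called lower, and the median over all genes was -0.11 against -0.83 for the members. H2-Eb1 had a log2 difference of -0.81 (adjusted p = 0.0519), H2-Oa of -0.62 and Ciita of -0.35, and these 3 did not pass. The Cd74 call was lost without the first (adjusted p = 0.0845) or the third (adjusted p = 0.0990) young antibiotic pool, and without the first (adjusted p = 0.0602) or the second (adjusted p = 0.122) aged antibiotic pool. The count of 5 became 0 without the first or the third young antibiotic pool or the second aged antibiotic pool. It became 1 without the second young antibiotic or the first aged antibiotic pool. These fits called 51 to 79 genes, against 168 with all pools. The count became 3 without the first young control pool and 2 without the third young control pool.

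In controls all 8 members were also lower in aged Ly6CLow cells, with 0 of 8 passing where 0.755% of genes were called. Without the third aged control pool 6 members passed, in a fit that called 297 genes against 65 with all pools. Cd74 differed by a log2 of -0.71 (limma adjusted p = 0.0909), H2-DMa by -0.74 (adjusted p = 0.106) and H2-DMb1 by -0.78 (adjusted p = 0.129), and the median was -0.63 against -0.21 over all genes. Antibiotics called 0% of genes in young mice, 0% in aged mice, 0% for the mean and 0% for the difference, so no member passed, and 365, 535, 525 and 428 genes had an unadjusted p under 0.05. The members were between 0.06 and 0.33 higher on the log2 scale in young antibiotic than in young control pools, where Cd74 pools overlapped.

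The make-up of the Ly6CLow class moved with age as well. Cells under 2000 raw UMIs were 4.38% of Ly6CLow cells in the young and 31.7% in the aged well. A chain sum of at least 10 was reached by 60.9% ± 10.7, 70.0% ± 3.4, 41.0% ± 14.97 and 46.6% ± 6.5 of Ly6CLow cells in controls and antibiotic pools of young mice and then of aged mice. Among cells of at least 2000 UMIs the shares were 61.1% ± 10.2, 70.4% ± 3.6, 59.5% ± 9.7 and 62.3% ± 8.8. Among cells under that depth they were 5.26% and 11.1% in the aged groups. The young shares there, 58.3% and 66.7%, rest on a few cells, at most 9.76% of the 41 cells of a pool. Single young control pools stood at 0%, 75% and 100%, so no comparison by age is drawn from them. In the fit on cells of at least 2000 UMIs, Cd74 differed by -0.45 under antibiotics (limma adjusted p = 0.548) and no member passed. The level within cells past a sum of 10 was 291 ± 20, 305 ± 12, 292 ± 17 and 264 ± 47 in the same order of groups. Under antibiotics the aged pools stood at 286, 210 and 296 and the young pools at 301, 294 and 318, so the pools overlapped. Any of 7 dendritic-cell genes was above 0 in 63.0%, 65.02%, 46.5% and 44.5% of Ly6CLow cells, and the summed dendritic markers were at 6.41, 7.12, 4.13 and 2.58. Summed B-cell markers were at 0.900 to 2.63 in young pools and reached 64.8 in an aged pool. From a pool mean alone, fewer class II cells and less RNA per cell cannot be told apart.

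In ILCs, 4 members were called and nearly all of their RNA came from 7 cells. Cd74 was at 0.531, 0.240 and 0.562 in young controls, 8.61, 0.778 and 0.433 in young antibiotic pools, 27.4, 7.59 and 13.3 in aged controls, and 0.188 and 0.640 in the aged antibiotic pools that held at least 10 ILCs. H2-Aa was at 0.156, 0.040 and 0.156, then 4.67, 0.111 and 0.233, then 9.82, 2.60 and 4.71, and last 0.188 and 0.080. All 3 aged control pools and 1 young antibiotic pool stood apart. The second aged antibiotic pool held 5 ILCs and was left out of the fit. Aged minus young in controls gave log2 differences on the log2(value + 0.05) scale of 4.91 for Cd74 (limma adjusted p = 0.000452), 4.996 for H2-Aa (adjusted p = 0.00115), 5.57 for H2-Eb1 (adjusted p = 0.00116) and 4.52 for H2-Ab1 (adjusted p = 0.00487), where 0.384% of genes were called higher. Antibiotic minus control in aged mice gave -5.12 for Cd74 (adjusted p = 0.00504), -4.83 for H2-Aa (adjusted p = 0.0311), -5.10 for H2-Eb1 (adjusted p = 0.0423) and -4.66 for H2-Ab1 (adjusted p = 0.0497), where 0.06% were called lower. The number called fell to 0 or 1 without the first or the third aged antibiotic pool, without the first aged control pool or without the third young control pool, and to 2 without the first young control or the third aged control pool. As 2 aged antibiotic pools entered the fit, leaving out either leaves 1, which is assumed to vary like the other groups. The difference between the ages passed for Cd74 and H2-Aa, where 0.024% of genes were called lower. No member passed in the other ILC contrasts, namely antibiotics in young mice (0.06% of genes called), the mean over ages (0.012%) and age under antibiotics (1.44%).

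The 7 ILCs had chain sums between 29 and 436 and held 92.8% of the summed chain values of all 330 ILCs. Of them, 6 came from aged control pools, at 1, 4 and 1 a pool, and 1 came from the first young antibiotic pool. All 7 had the dendritic genes Flt3 or Cd209a above 0. Cd209a was above 0 in 5 of 7 and in 0% of the other ILCs, and Flt3 in 5 of 7 and in 1.24%. Of the other dendritic genes listed, Itgax was in 5 of 7 against 16.4%, and Zbtb46, Xcr1, Clec9a and Ccr7 were in 0 of 7. The ILC genes Gata3 and Ncr1 were above 0 in 0 of 7 and 1 of 7, against 44.3% and 47.4% of the other ILCs, and Klrb1c was in 1 of 7 against 49.2%. The other 3 markers of the ILC and NK list were in more of the 7 cells, with Il1rl1 in 4 of 7 against 21.7%, Nkg7 in 4 of 7 against 69.3% and Il7r in 3 of 7 against 50.8%. The macrophage gene Mrc1 was in 4 of 7 against 1.55%, while Pf4, Ms4a7, Cd163, Lyve1 and Cbr2 were in 0 of 7, and the T-cell gene Cd3e was in 3 of 7 against 20.4%. Their median depth was 17495 UMIs, against 6135 in the others. When the highest 1% of cells of each pool, here 1 cell, was left out gene by gene, no member passed in any of the 3 contrasts. Pools with only 1 of the 7 cells lose its chain values by this step, so the outcome was largely set in advance. When only ILCs at 0 for 7 dendritic-cell genes were used (chosen after these values were seen), no member passed in these contrasts either. All 7 cells have Flt3 or Cd209a and are removed by this step, so its outcome was also largely set in advance. It left 6 ILCs in the first aged control pool, under the limit of 10, so that pool did not enter this fit.

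**Figure D4:**
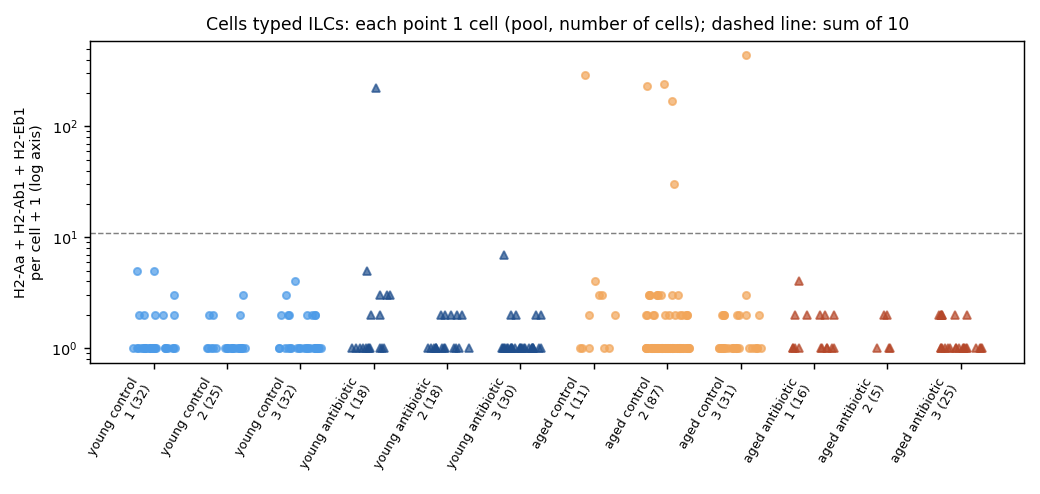
Summed H2-Aa, H2-Ab1 and H2-Eb1 value + 1 (vertical log axis) of each cell typed as ILC, by pool, with the number of cells in brackets and a dashed line at a sum of 10. The 7 cells above the line lie in the 3 aged control pools and in the first young antibiotic pool.

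In the remaining types no member passed in any contrast, though simulated 2-fold changes were called in only 0% to 7% of genes there. The share of genes called in at least 1 of 6 contrasts was 0.0716% in B cells, 0.917% in CD8+ cells, 0.0145% in Ly6C+Ly6G+ cells and 0% in Ly6CHigh cells. The lowest limma adjusted p of a member was 0.647 in B cells, 0.254 in CD8+, 0.490 in Ly6C+Ly6G+ and 0.423 in Ly6CHigh cells, and 1, 5, 1 and 1 members had an unadjusted p under 0.05 in at least 1 contrast. B cells, the richest type for H2-Oa, had Cd74 levels of 79.8, 86.3 and 87.2 in young controls, 72.4, 104 and 75.6 in young antibiotic pools, 56.7, 63.9 and 85.0 in aged controls, and 73.2, 79.6 and 52.9 in aged antibiotic pools. These groups overlapped. In CD8+ cells, Cd74 was at 8.03 and 0.471 in the young control pools that entered the fit, and without the first of these, which leaves 1 pool assumed to vary like the others, 6 members were called for antibiotics in young mice, in a fit that called 422 of 8287 genes against 12 with all pools.

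Protein was read by the I-A/I-E antibody, whose tag carries the barcode ggtcaccagtatgat and which binds I-A dimers at the surface. As the wells differed in tag depth, its share of all 34 antibodies' tags is given. It made up 38.8% ± 8.1, 44.2% ± 8.3, 51.9% ± 4.5 and 57.5% ± 4.1 of tags on BAM, 36.3% ± 4.8, 36.4% ± 4.0, 30.2% ± 3.3 and 31.7% ± 1.3 on Ly6CLow cells and 0.696% ± 0.036, 0.720% ± 0.015, 1.17% ± 0.094 and 1.25% ± 0.11 on microglia, with the groups in the order used above. Tag and RNA followed each other over cells of BAM (r of 0.93 in the young and 0.87 in the aged well, ln scale) and of Ly6CLow (0.93 and 0.91), but not of microglia (0.03 and 0.09). Young BAM with a chain sum of at least 10 had a median of 2168 tags against 18 in those at 0, and in the aged well the medians were 361 and 6.

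By antibiotics the antibody did not pass in any of these 3 types. edgeR's quasi-likelihood test on tags summed per pool called 0% of antibodies in young and 0% in aged mice on BAM, on Ly6CLow cells and on microglia alike. At an unadjusted p under 0.05 there were 0 and 1 antibodies on BAM, 1 and 2 on Ly6CLow cells and 3 and 4 on microglia, and I-A/I-E did not pass by DESeq2 either. By age, 52.9% of antibodies were called on microglia in controls and 50% under antibiotics, 44.1% and 17.6% on Ly6CLow, and 5.88% and 2.94% on BAM, so a call by age is common on the first 2 types. I-A/I-E was called higher on aged microglia, by a log2 of 0.48 in controls (SE 0.089, adjusted p = 0.00165) and 0.56 under antibiotics (adjusted p = 0.000513). On the centred log ratio of the same tags the sign turned, with limma values of -0.34 (adjusted p = 0.0023) and -0.36 (adjusted p = 0.00138). The median microglial cell carried 8 I-A/I-E tags in the young and 2 in the aged well, and no direction by age is drawn from these values. An exact permutation test over pools of the microglial shares gave p = 0.1 for age in each arm, two-sided, the smallest that 3 pools against 3 allow (0.64 after adjustment over 32 tests).

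On BAM, I-A/I-E differed by age by a log2 of 0.47 in controls (edgeR adjusted p = 0.418) and 0.47 under antibiotics (adjusted p = 0.341), and neither passed. Without the first young antibiotic pool, which shares the spread of the fit, the value in controls passed at 0.67 (edgeR adjusted p = 0.0424). On Ly6CLow cells it was called lower with age in controls (log2 -0.61, SE 0.19, edgeR adjusted p = 0.0206), while the value under antibiotics was -0.53 (adjusted p = 0.0619). The exact permutation test of its share there gave p = 0.2 in controls and 0.1 under antibiotics (0.738 and 0.64 after adjustment). Control pools overlapped in that share, at 30.9% to 39.6% in young and 27.7% to 34.0% in aged mice. The call in controls was lost without the first (edgeR adjusted p = 0.0526) or second young control pool (log2 -0.43, adjusted p = 0.173) and without the first (adjusted p = 0.0696) or second (adjusted p = 0.0880) aged control pool. CD11c, a dendritic and activation marker, was called on aged Ly6CLow cells under antibiotics with a log2 of -0.89 (edgeR adjusted p = 0.0363) and on aged microglia with 0.93 in controls (adjusted p = 0.000337) and 1.11 under antibiotics (adjusted p = 9e-05). CD64, an Fc receptor of macrophages, was called on aged microglia with a log2 of -0.40 in controls (edgeR adjusted p = 0.00395) and -0.31 under antibiotics (adjusted p = 0.0143), and CD83 and CD86 were not called by age on microglia, BAM or Ly6CLow cells. Tags a microglial cell in young and aged controls were few, at 2.70 and 0.968 for CD11c and 6.68 and 0.960 for CD64. The alternative fits were read for I-A/I-E alone, so no direction by age is drawn for CD11c or CD64 on microglia.

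**Figure D5:**
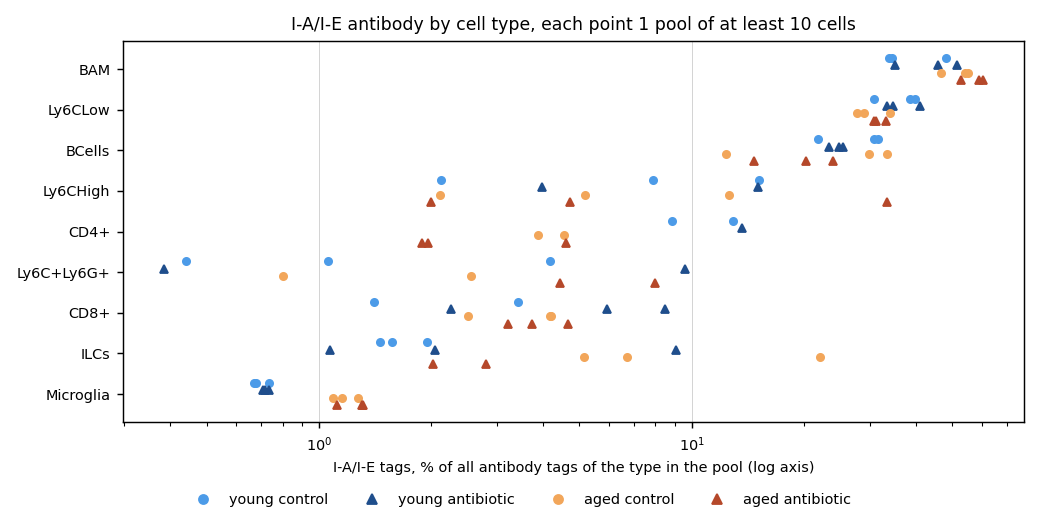
I-A/I-E tags as a percent of all antibody tags (horizontal log axis) in each cell type; each point is 1 pool of at least 10 cells, with colour and shape for its group. Group means run from 38.8% to 57.5% on BAM, from 30.2% to 36.4% on Ly6CLow cells and from 0.696% to 1.25% on microglia, where aged pools lie to the right of young pools.

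The other genes of the pathway were read from 6 lists, of further class II chains and chaperones, class II transcription, interferon gamma signalling, antigen processing, class II turnover and costimulation. In BAM, 0 of 33 tested passed in any of the 6 contrasts by limma, with 1 to 3 at an unadjusted p under 0.05 in each, and in Ly6CLow cells 1 of 33 passed, the cathepsin Ctsl, higher in aged antibiotic than in young antibiotic pools by a log2 of 1.63 (limma adjusted p = 0.00377). In microglia, 0 of 31 passed for antibiotics in young mice or for the aged minus young difference, while 5 and 2 had an unadjusted p under 0.05. In aged microglia under antibiotics 2 of 31 were lower, Nfya (log2 -0.48, adjusted p = 0.00384), a subunit of the Y-box factor NF-Y, and Creb1 (-0.45, adjusted p = 0.00615), a factor of the class II promoter complex, and 1 was higher, Icosl (0.32, adjusted p = 0.0370), a ligand for T-cell ICOS. By age in control microglia, H2-Ob (0.40, adjusted p = 0.0303) and Cd274 (0.52, adjusted p = 0.0323), which encodes PD-L1, were higher and Ifngr1 (-0.24, adjusted p = 0.0230), a chain of the interferon gamma receptor, was lower. By age under antibiotics the proteases Ctsz (0.23) and Ctsb (0.24), Icosl (0.30) and Cd274 (0.65, adjusted p = 0.00395) were higher, and 3 of 31 were lower, Ifngr1 (-0.28), Nfya (-0.38) and March1 (-0.34, adjusted p = 0.00797), the ligase that removes class II from the surface.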

How the data were processed

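CITE-seq libraries of 12 pools of mouse brain immune cells were analysed from the authors' deposited tables. Per the submitters' processing notes, Cell Ranger 3.0.2 and Seurat 3.0.1 were used with the mm10 build. The deposited RNA values are whole-number SCTransform-corrected UMI values, a normalized score and not raw counts, so no count model was used on them. The authors' deposited antibody values and RNA totals per cell are raw counts. The deposited tables hold cells already called singlets, and cell types were taken from the authors' annotation. A further 33 metadata columns were not used.

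Values were averaged per pool and type, leaving out pools under 10 cells of a type, and tested with limma 3.58.1 (trended prior variance, log2(mean + 0.05), genes with a mean of at least 0.05, 1 fit for the 4 groups, adjusted p under 0.05). All 12 pools entered for microglia, BAM, Ly6CLow and B cells, 11 for ILCs, CD8+ and Ly6CHigh, and 9 for Ly6C+Ly6G+ cells. Antibody counts summed per pool were tested with edgeR 4.0.16 (TMM factors), with DESeq2 1.42.0 as an alternative. R 4.3.3 and Python 3.11.15 were used. The scripts were tested on simulated data, with 200 genes raised 2-fold in aged antibiotic pools. Of these genes, 100% were called in microglia, 15.5% in Ly6CLow, 11% in BAM and 7% in CD8+ cells. In B cells 4% were called, in ILCs 1.5%, and in Ly6CHigh and Ly6C+Ly6G+ cells 0%. A lack of calls outside microglia therefore says little about changes of this size. Pools joined the cells of several mice, so p-values measure the spread between pools. Members and lists were chosen with earlier results of these data known. The named genes are the 8 members, listed pathway genes past the threshold (1 is not reported here), and the 5 genes of most like pattern. Alternatives were the pseudocount, the filter, the cells used, scaling, pools left out and a hashtag block.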

Additional observations from a re-analysis of the deposited data

Results flagged for a closer look

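The antibiotic effect on 2 class II genes in ILCs differed between the ages by a test of the difference itself (limma interaction). For Cd74 the effect in aged mice minus that in young mice was -6.81 on the log2(value + 0.05) scale (adjusted p = 0.00613), and for H2-Aa it was -6.77 (adjusted p = 0.0257). Both rest on the 7 ILCs with dendritic genes described above, of which 6 lie in aged control pools and 1 in a young antibiotic pool. Without ILCs that have a dendritic-cell gene, no member passed, which was largely set in advance because that step removes all 7 cells. The number of members called for this difference was 0 without the first aged antibiotic pool, 1 without the third aged antibiotic, the second young control or the third young control pool, and 4 without the first or the third young antibiotic pool. The aged antibiotic arm held 2 ILC pools in the fit, so leaving out 1 leaves a lone pool that is assumed to vary like the other groups.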

How the results depend on the processing

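Single members kept their side of the threshold in 3995 of the alternative fits, which include changes of sign where neither fit called the member. They were newly called in 44 and lost the call in 132. In 5 the sign changed and the main or the alternative fit had called the member. In ILCs, the 4 members called for antibiotics in aged mice became 0 with a pseudocount of 0.01, on the mean of log values per cell, on shares above 0, without the highest 1% of cells and in cells without dendritic genes, 1 without a filter or with a filter of 0.2, and 2 in cells of at least 2000 UMIs or after scaling pools to 1 total. The 2 called for the difference between ages became 0 under each of these except the cell-depth limit and the scaling, and also under the block and with pools of at least 20 cells. The 4 called by age in controls became 1 on log values and 0 on shares, without the highest 1% and without dendritic genes. The set without dendritic genes leaves out all 7 ILCs with high chain sums. In those cells without dendritic genes H2-Aa changed sign, to 0.064 for antibiotics in aged mice, 0.075 for the difference and -0.25 by age in controls, and H2-Ab1 to -0.56 by age in controls. In Ly6CLow, the 5 called by age under antibiotics became 2 with a pseudocount of 0.01 or scaling and 0 without a filter, on shares or in cells of at least 2000 UMIs, and H2-DMa changed sign to 0.075 on shares. By age in controls 5 were called on log values. Members newly called elsewhere were 3 in BAM by age under antibiotics on log values, 1 in microglia by age under antibiotics at 2000 UMIs, 1 in CD8+ cells by age under antibiotics without the highest 1%, 5 in CD8+ cells by age in controls and 1 in ILCs for the mean antibiotic effect with pools of at least 20 cells.

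Hashtag numbers did not pair the pools (correlations of deviations from -0.095 to 0.109). With the replicate block, 3 members were called in CD8+ cells by age in controls, 1 in microglia by age in controls (Cd74, 0.31), 1 in ILCs and 2 in Ly6CHigh cells by age under antibiotics.

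Leaving out 1 pool at a time gave 0 to 2 members in BAM by age under antibiotics, 0 to 6 in CD8+ cells for antibiotics in young mice and for the mean and 0 to 2 for the difference and for age in controls, 0 to 4 in ILCs for antibiotics in aged mice, the mean and the difference, 0 to 6 in Ly6CLow by age in either arm, 0 to 2 in microglia by age under antibiotics, and 0 to 1 in Ly6C+Ly6G+ cells for antibiotics in young mice. For the I-A/I-E antibody by age it gave 0.377 to 0.749 on BAM and 1.97 to 3.23 on ILCs in controls, and on Ly6CLow -0.791 to -0.435 in controls and -0.685 to -0.167 under antibiotics. Genes called over the alternatives other than single pools left out, in brackets after the count reported, were 12 (0 to 58) and 283 (105 to 459) in microglia for antibiotics in young and aged mice, 473 (209 to 711) for the mean, and 233 (138 to 382) and 539 (347 to 821) by age in controls and under antibiotics. By age they were 65 (0 to 311) and 168 (5 to 448) in Ly6CLow, 4 (0 to 7) and 7 (2 to 41) in BAM and 76 (1 to 91) and 120 (3 to 183) in ILCs. The centred log ratio turned I-A/I-E on microglia to -0.34 and -0.36.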
